A study of Homo sapiens with 96 samples.

Results

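The mitochondrial ribosomal protein genes were taken as the entries of a raw count table whose symbols begin with MRPL or MRPS followed by a number and at most one letter from A to C, without pseudogenes and without entries that carry a copy suffix. There were 78 such genes among 44659 entries, and 72 of them were among the 14948 genes that passed a filter on low counts (filterByExpr of edgeR). The counts came from 96 libraries of the human melanoma line A375, whose BRAF kinase is mutated. DMSO or MAPKi, a mixture of 500 nM vemurafenib (a BRAF inhibitor) and 500 nM cobimetinib (a MEK inhibitor), was given for 18 h. Each pretreatment was followed by vehicle, by cycloheximide (CHX, 100 µg/ml, which stops translation elongation), by triptolide (25 µM, which stops transcription), or by CHX and, 5 min later, triptolide, with harvests at 0, 1, 3 and 5 h. This gave 32 groups of 3 libraries, all made from the cytoplasmic RNA of a single cell line, and nothing in the labels says whether replicates were separate cultures, so that p-values measure the spread between these libraries. The libraries were made by QuantSeq, which reads mRNA 3′ ends, so a count stands for a transcript whatever its length.

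Mitochondria have their own ribosome, the mitoribosome, which translates the few mRNAs of the mitochondrial genome into core subunits of the respiratory chain. Its rRNAs are made inside the organelle, but all of its proteins are encoded in the nucleus, translated on cytosolic ribosomes and imported. The large subunit holds the peptidyl transferase centre and the small subunit decodes the mRNA. Some proteins have bacterial counterparts and others were added during the evolution of mitochondria. By structural assignment, 51 of the 78 genes encode large-subunit proteins, among them MRPS18A and MRPS30 in spite of their names, and 26 encode small-subunit proteins. MRPS36 is now regarded as part of the 2-oxoglutarate dehydrogenase complex and belongs to neither subunit.

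Total counts ran from 2381351 to 12520154 per library, with a median of 7143396, and the mitochondrial ribosomal protein genes together took 0.595% to 0.846% of each library. Log2 counts of libraries of the same group correlated at 0.933 to 0.971 across genes. The label of a melanoma line was checked in the vehicle arm on 8 melanocyte lineage markers. SOX10, MITF, S100B, S100A1 and DCT were expressed, PMEL was low, with 1.29 CPM (counts scaled to the size of the library) in DMSO and 14.96 in MAPKi, DCT went from 49.8 to 1944 CPM with MAPKi, and MLANA and TYR were below 1 CPM on average. Of the 6 markers of other cell types, KRT5 and PECAM1 were at 0 in all vehicle libraries, COL1A2 and PTPRC averaged below 1 CPM, and KRT14 and PDGFRB moved with MAPKi, from 0.109 to 1.58 CPM and from 0.593 to 2.67 CPM, and the part of these markers in the results was not tested. DUSP6, which dephosphorylates ERK and is itself induced by it, went from 349 ± 70.6 CPM in DMSO to 2.41 ± 1.91 CPM in MAPKi (SD, n = 12).

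The genes were spread over 21 chromosomes. Of the 69 promoters found in the RefSeq table (250 bases before to 50 bases after the gene start, GRCh38.p14), 29 (42.0%) held CCGGAAG, the core letters of ETS and GABP sites, against 10.7% of all 27305 promoters of that length and 18.3% of those of the genes tested. The YY1 letters AAGATGG were in 23 (33.3%), against 6.06% and 7.46%, and the NRF1 letters GCGCANGCG in 13 (18.8%), against 8.05% and 14.2%. The GC box GGGCGG was in 60.9% of them and the E-box CACGTG in 8.7%, against 44.6% and 7.43% of all promoters but 67.2% and 9.87% of those of the genes tested. MRPL2, MRPL10, MRPL13, MRPL15, MRPL21, MRPL23, MRPL35, MRPS28 and MRPS36 were not matched to the table. Both strands were searched. At least one of the ETS, YY1 and NRF1 letters was in 71.0% of the promoters, against 21.8% of all. For the promoters of the genes tested, which held each kind more often than all promoters, this joint share was not counted. These matches are descriptions of letters and not of bound factors. The promoters of the 3 genes with the largest falls after MAPKi and of 2 that rose are shown 5′ to 3′, with ETS, YY1 and NRF1 letters in capitals, since the comparisons that follow begin with these genes. MRPL17 (chr11:6683291-6683590, minus strand) held 3 NRF1 matches, of which 2 overlap, MRPL3 (chr3:131502922-131503221, minus) held 1 ETS match, MRPL36 (chr5:1799788-1800087, minus) held 1 NRF1 and 1 YY1 match, MRPL34 (chr19:17292323-17292622, plus) held 0 of the 3 kinds, and MRPL53 (chr2:74472631-74472930, minus) held 2 ETS matches.
MRPL17: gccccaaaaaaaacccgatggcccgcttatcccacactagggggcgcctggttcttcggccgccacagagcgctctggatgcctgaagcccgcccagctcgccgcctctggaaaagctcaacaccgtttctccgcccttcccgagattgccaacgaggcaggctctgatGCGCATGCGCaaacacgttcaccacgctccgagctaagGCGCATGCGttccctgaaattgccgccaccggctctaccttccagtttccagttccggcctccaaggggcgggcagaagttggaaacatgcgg
MRPL3: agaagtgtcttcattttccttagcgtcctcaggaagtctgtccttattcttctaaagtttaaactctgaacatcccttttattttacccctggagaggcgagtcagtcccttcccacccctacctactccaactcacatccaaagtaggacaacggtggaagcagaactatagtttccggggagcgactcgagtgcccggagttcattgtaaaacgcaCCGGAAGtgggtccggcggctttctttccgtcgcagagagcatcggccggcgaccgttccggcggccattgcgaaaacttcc
MRPL36: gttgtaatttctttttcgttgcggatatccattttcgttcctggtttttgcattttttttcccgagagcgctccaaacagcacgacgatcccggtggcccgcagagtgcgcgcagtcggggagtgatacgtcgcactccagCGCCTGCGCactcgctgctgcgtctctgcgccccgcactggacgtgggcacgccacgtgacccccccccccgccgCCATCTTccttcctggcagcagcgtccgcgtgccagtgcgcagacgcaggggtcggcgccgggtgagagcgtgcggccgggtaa
MRPL34: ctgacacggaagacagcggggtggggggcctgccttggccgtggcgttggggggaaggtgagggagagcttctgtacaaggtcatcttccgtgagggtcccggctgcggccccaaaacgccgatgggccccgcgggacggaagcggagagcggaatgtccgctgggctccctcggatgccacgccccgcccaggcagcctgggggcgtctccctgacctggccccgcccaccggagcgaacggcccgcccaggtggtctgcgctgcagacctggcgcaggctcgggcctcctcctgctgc
MRPL53: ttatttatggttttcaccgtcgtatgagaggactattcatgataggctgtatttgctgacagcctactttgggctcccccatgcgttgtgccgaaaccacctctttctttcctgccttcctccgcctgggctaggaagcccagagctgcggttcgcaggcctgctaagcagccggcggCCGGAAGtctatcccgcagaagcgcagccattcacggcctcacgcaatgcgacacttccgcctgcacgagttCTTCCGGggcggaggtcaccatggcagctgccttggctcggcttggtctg

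Among the 65 tested genes with a promoter in the table, falls outnumbered rises with and without each kind of letters. Of 28 with ETS letters, 17 were lower and 5 higher after MAPKi (median log2 change −0.32), and of 37 without them, 33 were lower and 1 higher (median −0.59). Of 19 with YY1 letters, 18 were lower and 0 higher (median −0.51), and of 46 without, 32 were lower and 6 higher (median −0.42). Of 12 with NRF1 letters, 10 were lower and 1 higher (median −0.51), against 40 and 5 of 53 without (median −0.43). These splits were not tested.

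Levels in untreated cells differed widely between the genes. In DMSO with vehicle at 0 h, MRPL51 had 364, 393 and 411 CPM in its 3 libraries, MRPL20 had 348, 333 and 340 CPM, and MRPL21 had 351, 312 and 325 CPM. All 3 encode large-subunit proteins, and the ranges of MRPL20 and MRPL21 overlapped. The median over the 72 tested genes was 88.2 CPM, with 33 genes above 100 CPM and 4 below 20 CPM. MRPL50 and MRPL39 were low, at 13.1 ± 3.42 and 9.03 ± 3.77 CPM (SD, n = 3). MRPS36 was near the limit of detection, with 0, 1.24 and 1.37 CPM, and its changes are not interpreted.

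The 6 genes that did not pass the filter were nearly empty in the table. Over all 96 libraries, MRPL23 had 5 counts, MRPL45 had 22, MRPS12 had 2 and MRPS18B had 13. For these genes the table also holds entries with a copy suffix, which carried 235 counts for MRPL23, 430 for MRPL45, 170 for MRPS12 and at most 48 for any of the 6 copies of MRPS18B. MRPS24 (chromosome 7, 43866558 to 43869893, minus strand) had 0 counts and shares exons on the same strand with the readthrough gene URGCP-MRPS24. MRPS28 had 19 counts. These entries say nothing of the expression of the genes, and the cause of their low counts was not tested.

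The first comparison asked how MAPKi changed the level of these mRNAs, averaged over the 4 vehicle times (12 libraries a group). That level was not constant in MAPKi, where these genes took 0.685%, 0.687%, 0.660% and 0.634% of the counts at 0, 1, 3 and 5 h. In DMSO the shares were 0.796%, 0.810%, 0.805% and 0.790%. They were 0.765% to 0.795% in the DMSO libraries of replicate 1 and 0.816% to 0.830% in those of replicate 3. The 12 libraries, 3 at each of 4 times, were therefore not fully independent. The main fit had no replicate term, and a fit with a replicate block also called 52 lower and 6 higher. Most of these mRNAs fell with MAPKi. In bulk RNA, fewer cells of a kind and less RNA per cell cannot be told apart. Of the 72 tested, 52 were lower and 6 higher at an adjusted p under 0.05 (edgeR quasi-likelihood test with TMM scaling), whereas among all genes tested 32.9% were lower and 36.2% were higher. Their median log2 change was −0.44, against 0.06 for all genes, and was −0.45, −0.42 and −0.49 when libraries of the same replicate number were compared. Large-subunit genes (35 lower and 4 higher of 49, median −0.50) and small-subunit genes (17 lower and 2 higher of 22, median −0.41) were close in these values, which were not tested against each other, as were proteins with bacterial homologs (29 lower of 41, median −0.43) and those specific to mitochondria (23 lower of 30, median −0.43). With vehicle at 0 h only, 38 of the 72 were lower and 3 higher, where 23.6% of all genes were lower and 22.3% higher. The medians were then −0.40 and 0.04.

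**Figure D1:**
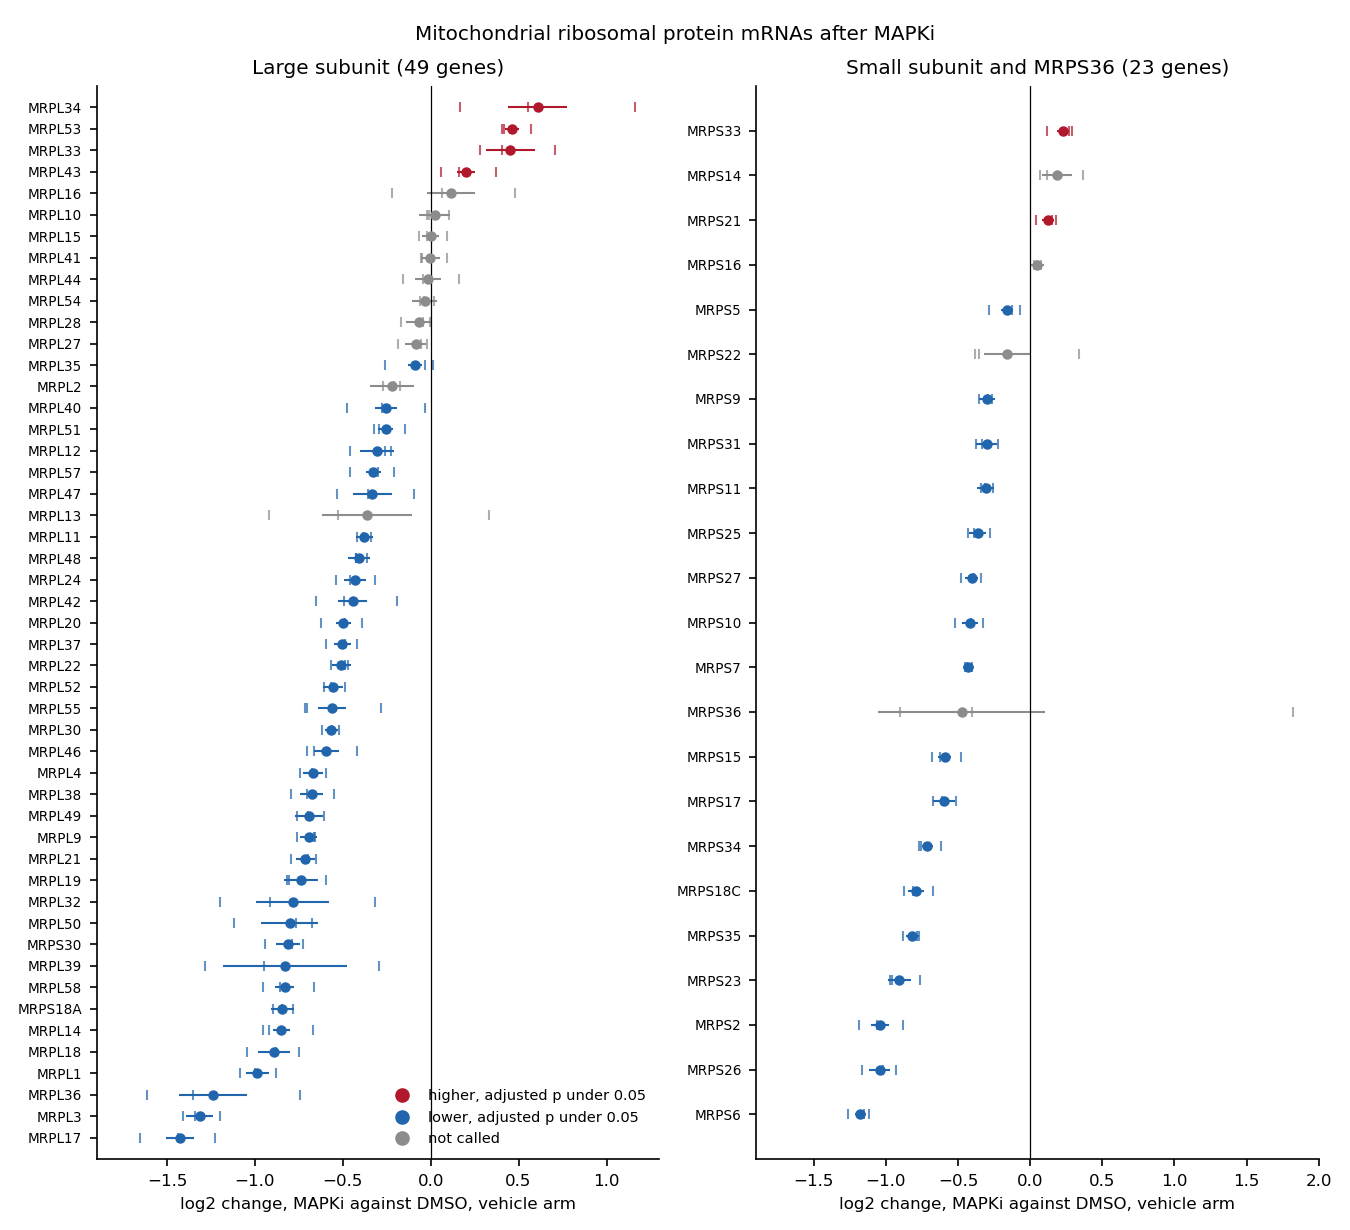
Log2 change of each tested mitochondrial ribosomal protein mRNA in MAPKi against DMSO in the vehicle arm (x axis), ordered within each subunit (y axis), with points for the fitted change, bars for its standard error and ticks for the 3 replicate numbers. Of the 72 genes 52 are lower (blue) and 6 higher (red), and MRPS36, which had almost no counts, has the widest spread.

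Neighbouring pathways did not share one direction. Of the 5 mitoribosomal proteins that carry other symbols, 4 were lower and 0 higher (median −0.47), among them DAP3 (−0.47) and PTCD3 (−0.49) of the small subunit and GADD45GIP1 (−0.62) of the large. Of 29 tested mitoribosome assembly factors 22 were lower and 2 higher (median −0.36), led by the rRNA methyltransferases TFB1M (−1.30) and MRM2 (−1.06) and by MTERF3 (−1.02). Of 16 mitochondrial translation factors 9 were lower and 3 higher (median −0.19), led by the mRNA-binding partners SLIRP (−1.02) and LRPPRC (−0.57) and the elongation factor TSFM (−0.74). Cytosolic ribosomal protein genes were lower in 41 and higher in 4 of 74 (median −0.17). The nuclear-encoded respiratory chain genes, many of whose products assemble with the proteins that the mitoribosome makes, moved the other way, with 50 higher and 3 lower of 71 (median 0.26). Differences between these lists were not tested.

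The largest fall was that of MRPL17, a large-subunit protein (chromosome 11, 6680385 to 6683340). It had 49.9 to 83.2 CPM in the DMSO libraries (median 66.6) and 19.2 to 37.4 CPM in the MAPKi libraries (median 24.2), without overlap. Its log2 change was −1.43 with a standard error of 0.08 (adjusted p 2.06e-27, edgeR), and it was lower with each of the 3 replicate numbers. MRPL3, which lies near the peptidyl transferase centre (chromosome 3, 131462212 to 131502983), had 151 to 232 CPM (median 199) in DMSO and 61.7 to 93.1 CPM (median 78.6) in MAPKi. The groups did not overlap and the change was −1.31 (adjusted p 2.11e-26, edgeR). MRPL36, a small zinc-binding protein of the large subunit, had 26.9 to 80.5 CPM (median 62.3) and 11.6 to 31.2 CPM (median 26.7), so that its groups overlapped, with a change of −1.24 and a standard error of 0.19.

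In the small subunit, MRPS6 changed most. It had 243 to 274 CPM (median 257) in DMSO and 91.2 to 141 CPM (median 113) in MAPKi, a change of −1.18 with a standard error of 0.04 (adjusted p 6.14e-41, edgeR). MRPS6 (chromosome 21, 34073224 to 34143034) shares exons on its strand with SLC5A3, though not its last exon. MRPS26, with 121 to 167 CPM in DMSO and 56.6 to 87.5 CPM in MAPKi, and MRPS2, with 102 to 126 and 43.96 to 63.9 CPM, both changed by −1.04. The other falls among the 10 largest were those of MRPL1 (−0.99), MRPS23 (−0.91), MRPL18 (−0.89) and MRPL14 (−0.85). In all of these genes the lowest DMSO library was above the highest MAPKi library.

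The paralogs MRPS18A, MRPS18B and MRPS18C are 3 versions of one bacterial protein, of which MRPS18A sits in the large subunit and the others in the small one. MRPS18A fell from a median of 125 CPM (range 113 to 160) to 69.6 CPM (range 52.5 to 97.2), a change of −0.84. MRPS18C fell from 93.8 CPM (range 86.0 to 112) to 56.6 CPM (range 47.6 to 60.5), a change of −0.79 (adjusted p 1.56e-20 and 5.34e-23, edgeR). MRPS18B could not be measured. The last exon of MRPS18A overlaps RSPH9 and that of MRPS18C overlaps ABRAXAS1, both on the opposite strand, and since the strand setting of the counting is not given in the sources used here, reads of these pairs cannot be told apart. The same limit holds for all 9 members with an opposite-strand exon over the last exon, among them MRPL20 and MRPS16.

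The 6 rises were smaller than the 10 largest falls. MRPL34 (chromosome 19, 17292609 to 17306843), a small protein of the large subunit, had 36.7 to 115 CPM (median 87.4) in DMSO and 67.5 to 163 CPM (median 126) in MAPKi, overlapping groups, with a log2 change of 0.61 and a standard error of 0.17 (adjusted p 0.00098, edgeR). MRPL53 (chromosome 2, 74471982 to 74472687) had 107 to 145 CPM (median 135) and 170.2 to 208 CPM (median 181), without overlap, with a change of 0.46 (adjusted p 1.72e-17, edgeR), and it shares its last exon with CCDC142 on the same strand. MRPL33 (0.45), MRPS33 (0.23), MRPL43 (0.20) and MRPS21 (0.12) had overlapping groups. The calls of MRPL33, MRPL34 and MRPL43 were each lost under 2 of 9 alternatives and that of MRPS21 under 1, with adjusted p-values up to 0.566, 0.166, 0.185 and 0.0689.

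**Figure D2:**
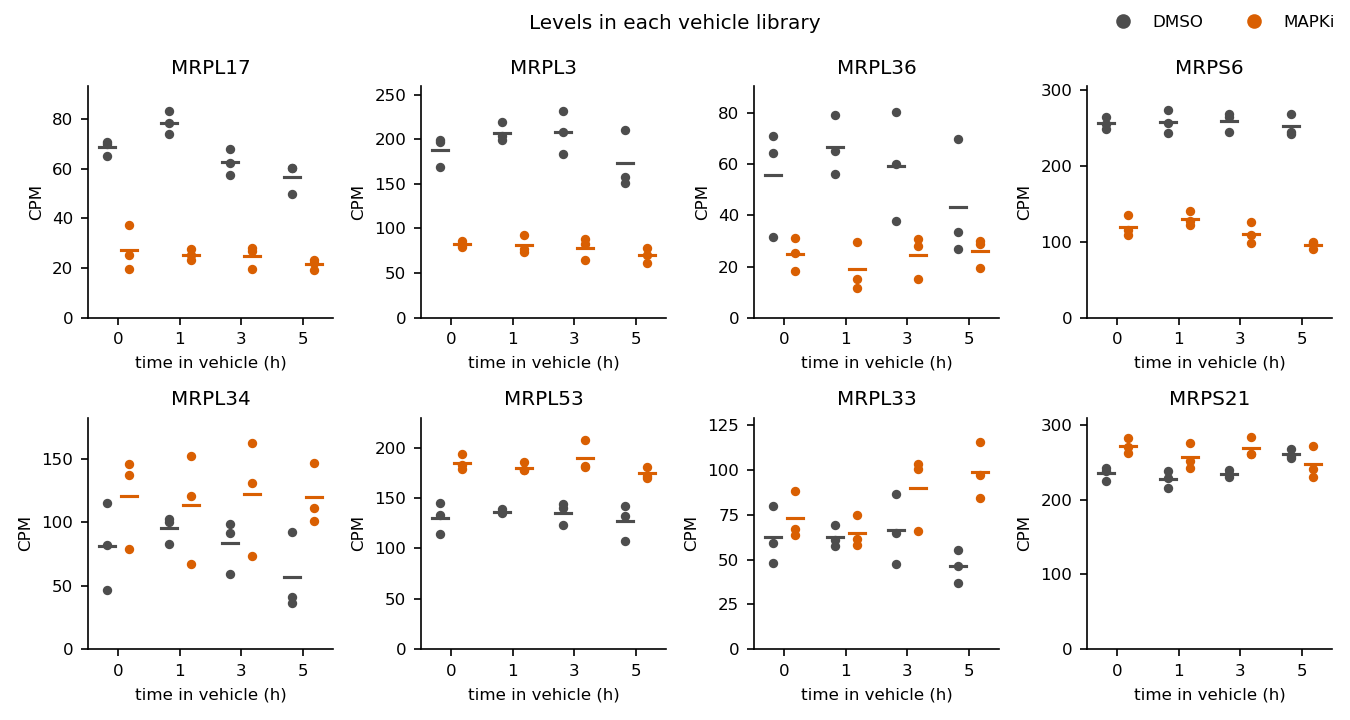
CPM (y axis, from 0) in each vehicle library by time (x axis, h) for 4 mRNAs that fell and 4 that rose after MAPKi, with a point for each of the 3 libraries and a bar for their mean. MRPL17, MRPL3 and MRPS6 are lower in every MAPKi library than in any DMSO library, while MRPL34, MRPL33 and MRPS21 overlap.

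The next comparisons asked how long these mRNAs persisted once transcription was stopped. For all arms with triptolide, counts were scaled to 36 stable genes, because triptolide removes RNA from the whole transcriptome. None of the 36 is a mitochondrial ribosomal protein gene. They were required to have at least 1.1 times their vehicle 0 h CPM at 3 and 5 h of triptolide, in these same libraries. By this rule a gene whose CPM rose less than theirs falls on this scale, so falls and percentages kept depend on the choice. On this scale the median mitochondrial ribosomal protein mRNA in DMSO kept 97.4% ± 3.72, 86.1% ± 3.04 and 81.3% ± 2.98 of its vehicle 0 h level after 1, 3 and 5 h of triptolide (SD, n = 3). In MAPKi it kept 91.6% ± 1.38, 78.9% ± 3.48 and 63.0% ± 2.32. The median of all genes at 5 h was 66.6% ± 2.06 in DMSO and 60.8% ± 2.40 in MAPKi. At 3 h it was 75.6% ± 2.66 and 70.9% ± 4.37. The median mitochondrial ribosomal protein mRNA was above that of all genes at both times in both pretreatments, with similar margins at 3 h and a smaller one in MAPKi at 5 h. Respiratory chain mRNAs stayed at 93.7% and 84.6%, and cytosolic ribosomal protein mRNAs at 94.0% and 91.1%. In vehicle at 5 h the median mitochondrial ribosomal protein mRNA stood at 101% ± 7.40 in DMSO and 94.2% ± 5.29 in MAPKi on the same scale.

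Over 3 and 5 h together, 37 of 72 were lower and 0 higher after triptolide in DMSO, where 48.7% of all genes were lower and 1.3% higher (edgeR), and the medians were −0.27 and −0.47. In MAPKi 59 were lower and 0 higher, where 56.1% of all genes were lower and 1.28% higher, and the medians were −0.47 and −0.59. At an unadjusted p under 0.05 the numbers higher were also 0 in both, and DESeq2 likewise called 0. These directions rest on the scaling: with TMM, which centres the typical gene, 29 were higher and 4 lower in DMSO and 22 higher and 10 lower in MAPKi, and the median of all genes shifted from −0.47 to −0.01 and from −0.59 to 0.04. Relative to the median of all genes, the median change was 0.19 higher in DMSO and 0.12 higher in MAPKi with stable genes, and 0.20 and 0.12 higher with TMM.

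**Figure D3:**
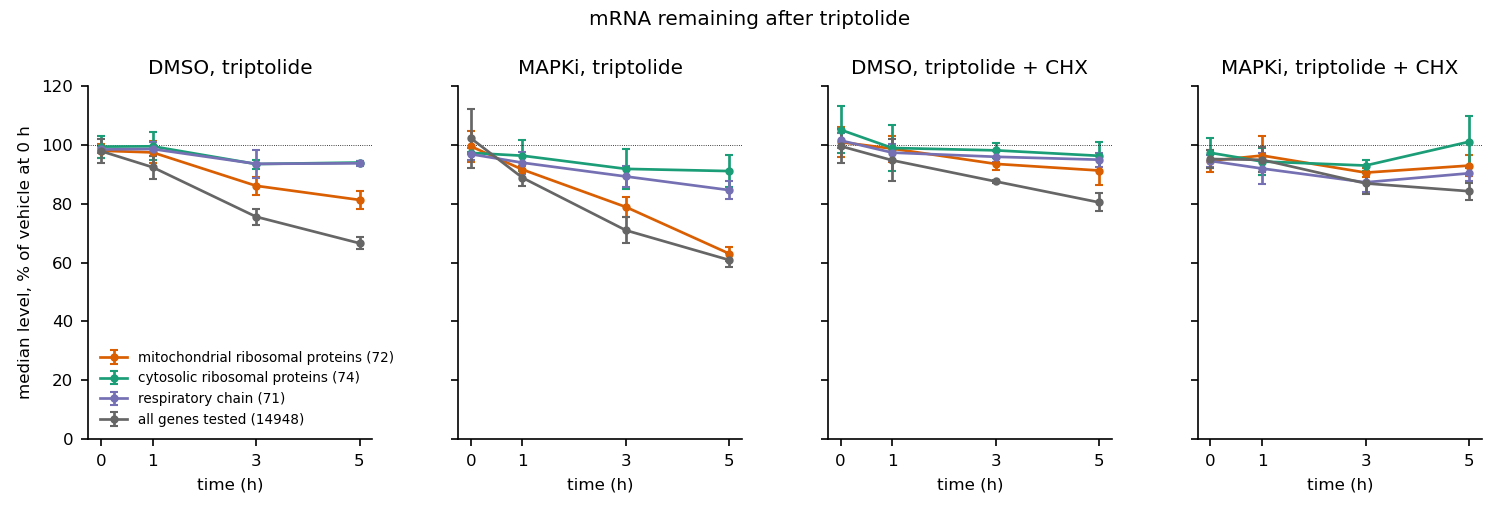
Median level of each gene list as a percentage of vehicle at 0 h (y axis) against time (x axis, h) in the triptolide arms (2 panels at left) and the triptolide plus CHX arms (2 panels at right), with SD over 3 replicates and stable-gene scaling. Mitochondrial ribosomal protein mRNAs (orange) end at 81.3% in DMSO and 63.0% in MAPKi with triptolide, and at 91.3% and 92.9% when CHX was also present. With TMM scaling the median change over 3 and 5 h of triptolide was above 0 in both pretreatments.

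A few members had lower levels after triptolide than the other members. At 5 h in DMSO, MRPL44 (chromosome 2, 223957463 to 223967714), a large-subunit protein with a ribonuclease III-like fold, was at 34.6%, 33.2% and 37.2% of its initial level. MRPS30 (chromosome 5, 44808947 to 44820428), a large-subunit protein, was at 36.2%, 40.6% and 36.1%. MRPS31 (chromosome 13, 40729128 to 40771190), a small-subunit protein, was at 31.6%, 50.7% and 39.9%. MRPL46 (chromosome 15, 88459477 to 88467390), of the large subunit, was at 33.0%, 52.7% and 46.3%. These 4 were the lowest of the genes with a value in both pretreatments, and all encode proteins specific to mitochondria. The log2 changes of the 4 over 3 and 5 h were −1.15, −1.07, −1.02 and −0.81 (adjusted p 7.44e-12, 4.76e-13, 2.72e-09 and 1.26e-07, edgeR), and MRPL17 followed with −0.66. The lower quartile of all genes tested was −1.02, so falls of this size were not particular to these 4 genes. The calls of these 4 held under all 12 alternatives, TMM among them, and that of MRPL17 was lost under 1.

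In MAPKi these 4 were again the lowest. At 5 h MRPS31 was at 10.2%, 16.3% and 7.22%, MRPS30 at 12.6%, 21.2% and 13.7%, MRPL44 at 18.8%, 20.4% and 12.8%, and MRPL46 at 25.1%, 24.1% and 40.3%. For the first 3 every MAPKi library was below every DMSO library, and for MRPL46 the groups overlapped. MRPL12, which forms the stalk of the large subunit and was chosen after its values were seen, stayed at 102%, 96.2% and 116% in DMSO and at 55.6%, 59.5% and 62.8% in MAPKi. In MAPKi vehicle at 5 h, without triptolide, it was at 59.9%, 62.2% and 62.8%, so that these MAPKi values overlapped those with triptolide. Its interaction of −0.57 did not pass the test (adjusted p 0.196, edgeR).

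The difference in the triptolide response between pretreatments was called for 9 of 72, all with a larger fall in MAPKi, where 2.76% of all genes had a larger fall and 0.415% a smaller one (edgeR). No member had a smaller fall at an unadjusted p under 0.05 or with DESeq2. Under TMM the median interaction was −0.06, against 0.05 for all genes, and 2 were called, both with a larger fall. Among all genes 1.36% then had a larger and 0.883% a smaller fall. With stable genes the median interaction was −0.23, against −0.11 for all genes. MRPS31 had −1.42 with a standard error of 0.21 (adjusted p 1.8e-06), MRPS30 −1.03 with 0.18 (3.78e-05, edgeR), and both were called under all 12 alternatives. MRPL44 had −0.75 (adjusted p 0.0144, edgeR, up to 0.235 over the alternatives), MRPL46 −0.62 (0.0474, up to 0.758) and MRPS18C −0.54 (0.0123, up to 0.441), and these calls were lost under 4, 9 and 6 of the 12. The called number was 2 to 3 when 1 replicate was left out. When the vehicle of the same time replaced vehicle at 0 h as the initial level, the median was −0.13, as it was for all genes, and 7 were called, where 7.72% of all genes had a larger fall.

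With CHX present, much less was lost. Under triptolide plus CHX the median mitochondrial ribosomal protein mRNA stood at 91.3% ± 5.01 in DMSO and 92.9% ± 3.49 in MAPKi at 5 h, against 80.4% ± 3.05 and 84.2% ± 2.92 for all genes (SD, n = 3). Comparing these libraries with triptolide alone over 3 and 5 h, 28 of 72 were higher and 1 lower in DMSO (all genes 28.4% and 0.468%), and 52 were higher and 0 lower in MAPKi (all genes 41.4% and 0.535%). In MAPKi 1 was lower at an unadjusted p under 0.05, and DESeq2 called 0. The medians were 0.17 and 0.35, against 0.23 and 0.34 for all genes. With TMM they became −0.05 and −0.01, against 0.02 and −0.03. Under TMM 6 were higher and 6 lower in DMSO, where 15.8% of all genes were higher and 5.58% lower. In MAPKi 15 were then higher and 9 lower, where 19.5% of all genes were higher and 13.5% lower. In DMSO the number called fell from 29 to 10 without replicate 3 and to 19 without replicate 2.

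The 4 mRNAs with the lowest levels after triptolide also had the 4 largest CHX effects in each pretreatment, a comparison that uses the same triptolide libraries. MRPS31 at 5 h was at 74.4%, 86.6% and 104% with both inhibitors in DMSO and at 89.9%, 96.8% and 70.4% in MAPKi, and in both pretreatments every one of these values was above those with triptolide alone. Its log2 effect of CHX was 0.81 in DMSO and 2.25 in MAPKi (adjusted p 2.42e-08 and 3.3e-26, edgeR). For MRPS30 the effects were 0.86 and 1.74, for MRPL46 0.81 and 1.25, and for MRPL44 0.62 and 1.48, all past the threshold. With both inhibitors at 5 h MRPL44 was at 53.0%, 61.9% and 62.6% in DMSO and 59.1%, 67.1% and 85.2% in MAPKi. MRPS30 was at 89.4%, 80.9% and 82.5% in DMSO and 82.7%, 98.0% and 57.1% in MAPKi, so that the MAPKi values of these 2 overlapped. The 5 largest effects also held MRPS26 in DMSO (0.52) and MRPL36 in MAPKi (0.91, adjusted p 0.00664 and up to 0.161 over the alternatives).

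**Figure D4:**
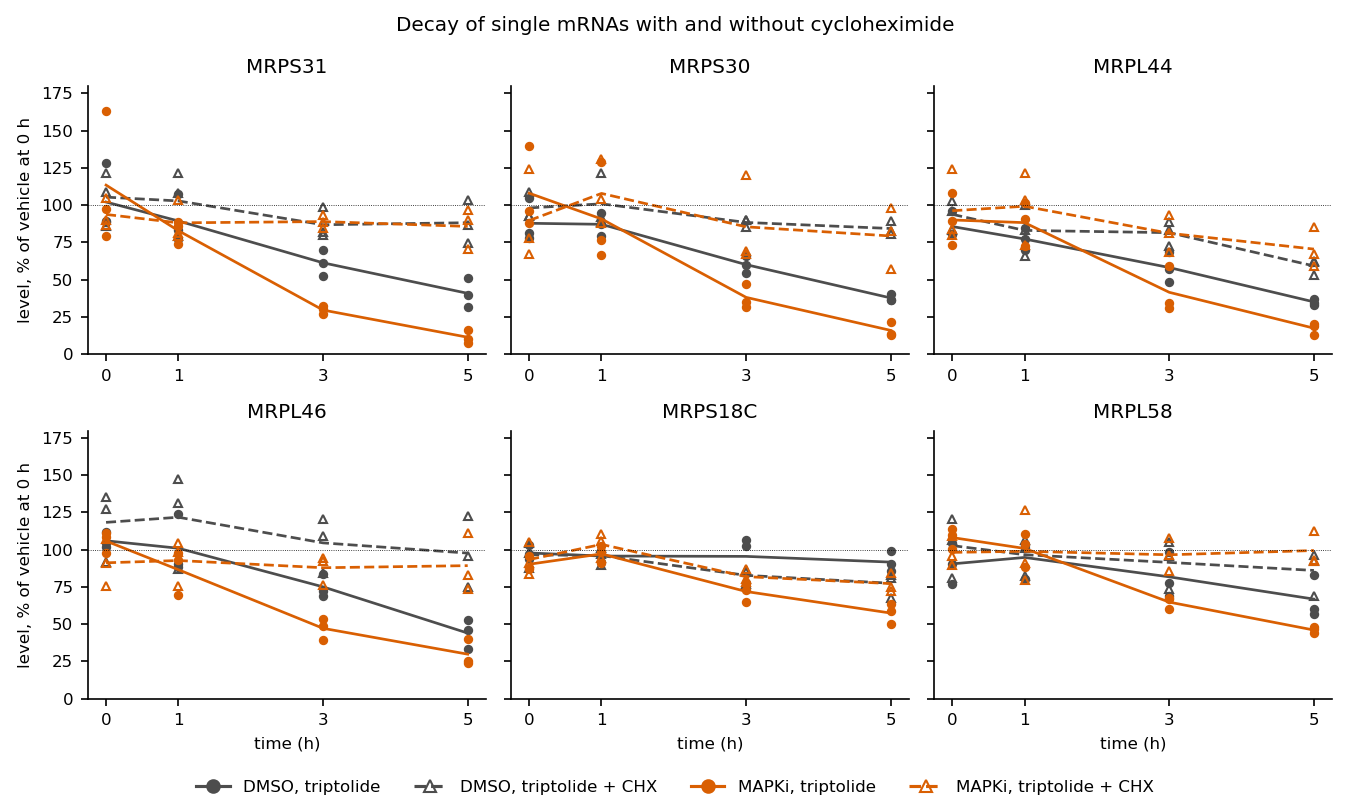
Level of 6 mRNAs as a percentage of vehicle at 0 h (y axis, stable-gene scaling) against time (x axis, h), with points for single replicates and lines for their means, for triptolide (filled, solid) and triptolide plus CHX (open, dashed). For MRPS31 and MRPS30 at 5 h the MAPKi triptolide points lie at 7.22% to 21.2%, below the DMSO points at 31.6% to 50.7%, while the points with both inhibitors lie at 57.1% to 104%.

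The CHX effect under triptolide was larger in MAPKi than in DMSO for 13 of 72 and smaller for 0, where 6.82% of all genes had a larger and 0.294% a smaller effect (edgeR). No member had a smaller effect at an unadjusted p under 0.05 or with DESeq2. The median interaction was 0.22, against 0.13 for all genes, or 0.06 against −0.02 with TMM. This comparison uses the same triptolide libraries as the one on the triptolide response, so the 2 are not independent. MRPS31 had 1.44 with a standard error of 0.17 (adjusted p 3.51e-09), MRPS30 0.88 (1.27e-05), MRPL44 0.86 (0.000127) and MRPL58 0.56 (0.000205, edgeR), each called under all 10 alternatives. MRPL58, a peptidyl-tRNA hydrolase that is built into the large subunit (chromosome 17, 75012670 to 75021261), kept 57.0%, 83.0% and 60.4% after triptolide in DMSO and 43.9%, 47.8% and 46.4% in MAPKi, and 93.3%, 92.7% and 112% when CHX was added in MAPKi. The number called was 4 to 7 when 1 replicate was left out.

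MRPS18C was the one member whose CHX effect was called in opposite directions. Its counts may hold reads of ABRAXAS1, which overlaps its last exon on the opposite strand. In DMSO it kept 90.1%, 99.1% and 85.8% with triptolide at 5 h and 83.3%, 81.2% and 67.9% with both inhibitors, a log2 effect of −0.22 over 3 and 5 h (adjusted p 0.0236, edgeR, lost under 5 of 10 alternatives, up to 0.176). In MAPKi it kept 49.99%, 58.5% and 63.7% with triptolide and 72.5%, 75.1% and 84.1% with both, an effect of 0.30 (adjusted p 0.00148). The difference of 0.52 had an adjusted p of 0.000887 (edgeR), which was 0.0685 without replicate 1 and past the threshold under the other 9 alternatives.

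The TDD index, a measure of translation-dependent decay, puts the 2 arms together: it is the normalised count with triptolide and CHX minus that with triptolide alone, as a fraction of the initial count. Its median over the 71 genes with enough initial counts was 0.102 ± 0.0323 after DMSO and 0.205 ± 0.0305 after MAPKi (SD, n = 3), against 0.122 ± 0.0343 and 0.183 ± 0.0115 for all 11422 genes. For respiratory chain genes it was 0.0112 ± 0.0253 and 0.0283 ± 0.037, and for cytosolic ribosomal protein genes 0.0182 ± 0.0279 and 0.0489 ± 0.0386. At an unadjusted p of at most 0.05 (limma), 20 of 71 had a higher index in MAPKi and 0 a lower one, where 14.4% of all genes were higher and 1.56% lower. After adjustment 0 of 71 passed in either direction, while 0.00876% of all genes did in each direction. With TMM scaling 8 were higher and 1 lower at the unadjusted threshold, where 6.9% of all genes were higher and 7.3% lower. The median difference was then 0.05, against −0.02 for all genes.

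**Figure D5:**
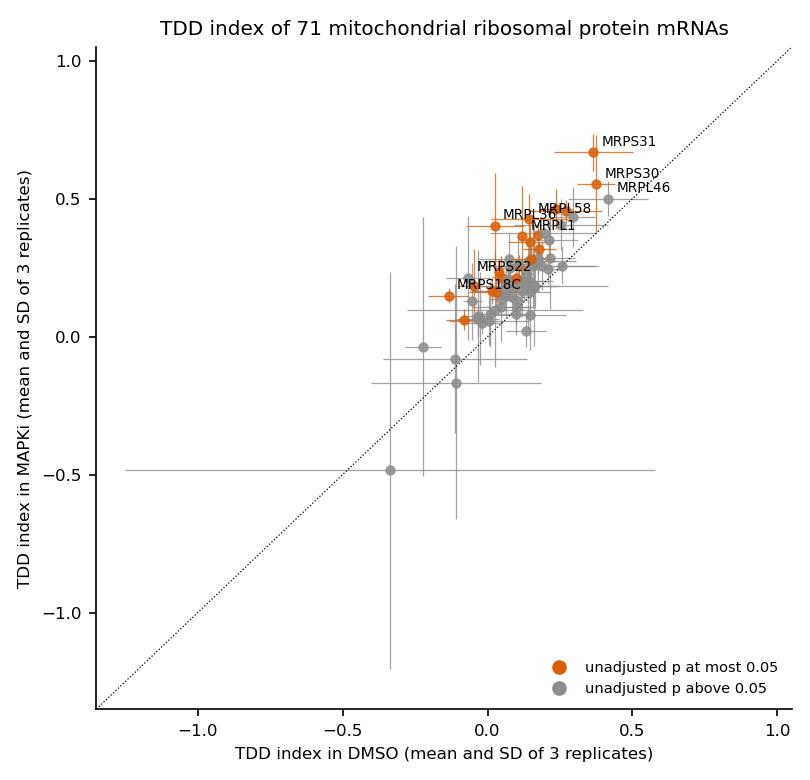
TDD index of 71 mitochondrial ribosomal protein mRNAs in DMSO (x axis) and MAPKi (y axis), as means with SD over 3 replicates, and the line of equality. The 20 with an unadjusted p of at most 0.05 (orange) lie above the line, with MRPS31 highest in MAPKi, and MRPL39, which had few counts, lies at the lower left with the widest error.

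MRPS31 had the highest index in MAPKi, with 0.733, 0.675 and 0.599, against 0.360, 0.230 and 0.505 in DMSO, without overlap (unadjusted p 0.000881, adjusted p 0.0826, limma). MRPL58 had 0.375, 0.371 and 0.532 against 0.0817, 0.054 and 0.299, and MRPS18C had 0.140, 0.128 and 0.179 against −0.180, −0.173 and −0.0516, both with an adjusted p of 0.0826 (limma). MRPL36 had the largest difference of the means, 0.377, but also a wide spread, with 0.216, 0.601 and 0.389 in MAPKi against −0.0916, 0.0819 and 0.084 in DMSO. MRPL1 had 0.306, 0.220 and 0.566 against 0.112, 0.127 and 0.119. Among the 4 genes with the lowest levels after triptolide MRPL46 had a high index in both pretreatments, 0.416 ± 0.139 and 0.501 ± 0.0639 (SD, n = 3), with an unadjusted p of 0.208 (limma).

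The last comparison was of CHX with vehicle while transcription continued. There the direction of the mitochondrial ribosomal protein mRNAs depended on the scaling. With TMM, over 3 and 5 h, 7 of 72 were higher and 8 lower in DMSO (all genes 17.3% and 14.9%), and 7 higher and 6 lower in MAPKi (all genes 15.9% and 14%), with medians of −0.03 and −0.01 (edgeR). With the stable-gene scaling of the triptolide arms, tried after the data were seen, 18 were higher and 1 lower in DMSO (all genes 24.9% and 5.76%), and 48 higher and 0 lower in MAPKi (all genes 36.3% and 2.23%). The medians were then 0.13 and 0.30, and those of all genes 0.14 and 0.28, so that under both scalings the members stayed close to the median gene. At 5 h in MAPKi the median member stood at 124% ± 5.31 of vehicle 0 h with CHX and at 94.2% ± 5.29 in vehicle on that scale (SD, n = 3). In the same MAPKi comparison with TMM, 60 of 74 cytosolic ribosomal protein genes (median −0.32) and 51 of 71 respiratory chain genes (median −0.34) were lower, whereas with stable genes 2 and 10 were lower and 0 and 6 higher (medians −0.01 and −0.04). The assembly factors had 13 of 29 higher and 0 lower with TMM (median 0.25) and 20 higher and 0 lower with stable genes (median 0.56).

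MRPS31 led the rises in both pretreatments. MRPS31 at 5 h in DMSO had 82.7, 70.2 and 73.8 CPM with CHX against 54.4, 51.5 and 43.9 CPM in vehicle, and in MAPKi 66.6, 57.1 and 56.1 CPM against 42.5, 33.4 and 38.3 CPM, without overlap. Its log2 change over 3 and 5 h was 0.55 in DMSO and 0.61 in MAPKi (adjusted p 7.04e-06 and 1.07e-06, edgeR). MRPL10 (0.47), MRPS30 (0.43), MRPL44 (0.41) and MRPS17 (0.37) also rose in DMSO, and MRPL46 (0.48), MRPL1 (0.44), MRPS26 (0.33) and MRPS6 (0.24) in MAPKi. These rises were also called with stable genes. Among the falls with TMM, MRPL37 (−0.36), MRPL42 (−0.34), MRPL24 (−0.34), MRPL48 (−0.32) and MRPS16 (−0.28) led in DMSO, and MRPS16 (−0.34), MRPL15 (−0.32), MRPS21 (−0.27), MRPL41 (−0.27) and MRPL51 (−0.20) in MAPKi. With stable genes, of these falls that of MRPL37 was still called, and MRPS21 (0.04), MRPL41 (0.04) and MRPL51 (0.10) in MAPKi had the opposite sign.

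Between pretreatments this CHX effect differed, with TMM, for 4 of 72, with 2 higher and 2 lower in MAPKi, where 5.01% and 5.95% of all genes were called (edgeR). MRPL15 at 5 h had 124, 129.8 and 139.6 CPM with CHX against 123, 117 and 131 CPM in vehicle in DMSO, and 104, 90.6 and 89.3 CPM against 129.8, 125 and 129 CPM in MAPKi, an interaction of −0.37 (adjusted p 0.00572, edgeR). MRPS6 had an interaction of 0.31 (adjusted p 0.00454) and MRPS21 one of −0.24 (0.0456, edgeR). The calls of MRPL15, MRPS6 and MRPS21 were lost under 3, 2 and 8 of 9 alternatives, with adjusted p-values up to 0.211, 0.104 and 0.618. With stable genes 10 were called, all higher in MAPKi, where 9.76% of all genes were higher. The number called was 0 without replicate 1, 3 without replicate 2 and 2 without replicate 3.

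The coding sequences of these genes were short. The 72 tested genes had a median of 197 codons, against 474 for the 80.3% of all tested genes with a coding sequence, and a median of 5 exons against 9. Lysine codons made up a median of 7.53% of the codons, against 5.81% for all genes, 12.3% for cytosolic ribosomal proteins and 6.20% for the respiratory chain. Arginine codons made up 8.59% against 5.57%, and glutamate and aspartate codons 6.59% and 3.84%, against 6.97% and 4.81%. Across 71 of the genes, Spearman correlations of these shares, codon number, exon number, 3′ untranslated length and third-position GC content with the changes and the TDD index ran from −0.27 to 0.25. The genes share libraries and differ in depth, and these weak relations are no finding.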

How the data were processed

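Raw gene counts of 96 QuantSeq 3′ libraries of cytoplasmic RNA (500 ng each) were used as deposited. Per the labels and the submitters' processing notes, the authors trimmed reads with fastp 0.20.1, aligned them with HISAT2 2.2.1 to GRCh38.p13 and made the counts with HTSeq 0.13.5. The strand setting and any removal of PCR duplicates are not given in the sources used here. The members and all gene lists were chosen with earlier results of these data known.

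One edgeR 4.0.16 quasi-likelihood model with a mean for each of the 32 groups was fitted in R 4.3.3 to 14948 genes kept by filterByExpr, and p-values were adjusted by Benjamini-Hochberg over all of them, with a threshold of 0.05. TMM scaling was used for MAPKi against DMSO and for CHX without triptolide. Comparisons with triptolide used median-of-ratios size factors from 36 genes taken as stable under triptolide, chosen with these libraries. They had a CPM above 0.2 in vehicle at 0 h, and at least 1.1 times that at both 3 and 5 h of triptolide. Their initial CPM was also above 10% of the later ones. This held in all replicates of both pretreatments. The triptolide change was the mean of 3 and 5 h against vehicle at 0 h, and CHX effects were means over 3 and 5 h. The TDD index (initial counts of at least 10) was tested with limma 3.58.1, with pretreatment, time and replicate number as terms. Groups came from the labels. Named genes were those called with the same direction for all 3 replicate numbers, up to 10 in each direction for MAPKi and up to 5 elsewhere, with the 3 highest and 3 lowest in level, the MRPS18 paralogs and those that failed the filter. Other members were named after their values were seen. Alternatives were other scalings, no filter, DESeq2 1.42.0, a replicate block, each replicate left out, other stable genes and, chosen after seeing the data, other initial levels and stable-gene scaling where TMM was used. Scripts were tested on simulated data. Coordinates are from GENCODE v44 (GRCh38), and promoters are from RefSeq (GRCh38.p14). Total counts of 2381351 to 12520154 per library set the precision. Over all genes, same-numbered libraries of the 2 pretreatments showed little joint deviation. In 48 pairs the correlation of their deviations from the group means ran from −0.0817 to 0.147, with 5 above 0.1. The share of counts taken by the members did go with replicate number in DMSO vehicle. It was 0.765% to 0.795% in replicate 1 and 0.816% to 0.830% in replicate 3. In MAPKi vehicle these ranges overlapped, with 0.618% to 0.687% and 0.654% to 0.691%.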

Additional observations from a re-analysis of the deposited data

Results flagged for a closer look

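The response to triptolide differed between pretreatments for 9 of 72 mitochondrial ribosomal protein mRNAs by the interaction term of the edgeR model. All 9 had a larger fall in MAPKi, where 2.76% of all genes had a larger fall and 0.415% a smaller one. With vehicle of the same time as the initial level 7 were called, where 7.72% of all genes had a larger fall. The largest were MRPS31 (−1.42), MRPS30 (−1.03), MRPL44 (−0.748), MRPL46 (−0.625) and MRPS18C (−0.537), as log2 differences of MAPKi minus DMSO. The calls of MRPL44, MRPL46 and MRPS18C were lost under 4, 9 and 6 of 12 alternatives.

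The effect of CHX under triptolide differed for 13 of 72, by the same kind of test and with the same triptolide libraries. All 13 had a larger effect in MAPKi, where 6.82% of all genes had a larger and 0.294% a smaller effect. The largest were MRPS31 (1.44), MRPS30 (0.881), MRPL44 (0.855), MRPL58 (0.565) and MRPS18C (0.523). The call of MRPS18C was lost under 1 of 10 alternatives.

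The effect of CHX without triptolide differed for 4 of 72 with TMM scaling, with 2 higher and 2 lower in MAPKi. Among all genes 5.01% were higher and 5.95% lower. With stable genes 10 were called, all higher, where 9.76% of all genes were higher and 2.8% lower. Among those called with TMM were MRPS6 (0.309), MRPL15 (−0.366) and MRPS21 (−0.243). Their calls were lost under 2, 3 and 8 of 9 alternatives.

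Entries with a copy suffix, which the comparisons do not use, held 1015 counts over all libraries.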

How the results depend on the processing

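For MAPKi against DMSO in the vehicle arm the number of mitochondrial ribosomal protein genes called, 58, stayed within 1.5 times under every alternative (53 to 55 with 1 replicate left out). It was lowest with vehicle at 0 h only, where 38 were lower and 3 higher. The comparisons with triptolide depended on scaling. With TMM the number called was 32 for triptolide in MAPKi, 2 for its interaction and 9 for the TDD index. For CHX under triptolide it was 12 in DMSO, 24 in MAPKi and 5 for the interaction. In that last interaction 2.81% of all genes were higher and 0.863% lower. With total counts the number called was 14 and 25 for triptolide in DMSO and MAPKi, 12, 25 and 7 for CHX under triptolide, and 13 for the TDD index. Of all genes 4.36% were then higher and 26.4% lower after triptolide in DMSO, and 4.51% and 31% in MAPKi. For CHX under triptolide 18.6% were higher and 2.13% lower in DMSO, and 25.3% and 5.04% in MAPKi. The shares were 4.66% and 0.528% for its interaction, and 10.1% and 3.46% for the TDD index. Medians changed sign with TMM for triptolide (0.19 in DMSO, 0.16 in MAPKi) and for CHX under triptolide (−0.045 in DMSO, −0.014 in MAPKi), and with total counts for triptolide in DMSO (0.041). Stable genes in place of TMM were an alternative chosen after seeing the data. With them CHX without triptolide had 48 calls in MAPKi and 10 for the interaction. Among all genes 36.3% were higher and 2.23% lower in MAPKi, and 9.76% and 2.8% for the interaction. The median in MAPKi was 0.30 for the members and 0.28 for all genes. MRPS21 (0.039), MRPL41 (0.042) and MRPL51 (0.10) in MAPKi changed sign. MAPKi against DMSO had 57 calls, where 35.7% of all genes were higher and 32.7% lower. TMM and total counts centre or sum over all genes, many of which fall under triptolide. With no filter on low counts the interactions of triptolide and of CHX under triptolide had 4 and 8 calls. Among all genes 1.11% were then lower in the first and 2.62% higher in the second. With stable genes chosen at 3 or 5 h the calls were 5 and 7, against 2.01% lower and 5.66% higher among all genes. The cause was not tested. With 1 replicate left out the numbers called ran from 2 to 3 and from 4 to 7 for these interactions. Among all genes 0.631% to 1.13% then had a larger triptolide fall in MAPKi and 2.85% to 3.49% a larger CHX effect. The numbers ran from 10 to 20 for CHX under triptolide in DMSO and from 10 to 22 for the TDD index. For CHX without triptolide they ran from 9 to 12 in DMSO, 8 to 17 in MAPKi and 0 to 3 for the interaction. With a replicate block the numbers were 58 for MAPKi, 39, 59 and 10 for triptolide, 31, 52 and 15 for CHX under triptolide, and 15, 14 and 5 for CHX without it, and without the block the TDD index had 22. Whether libraries of one replicate number are paired is not stated. The names of the count columns share a prefix within each replicate number, whose meaning is not given. Over all groups the mean correlation of deviations was 0.0111 for the same number and −0.00555 for other numbers. The TDD index and the percentages of vehicle at 0 h put libraries of the same number together. Low counts limit MRPS36, MRPL39 and MRPL50.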
